A study of Mus musculus with 8 samples.

Results

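Egr1, Egr2, Nr4a2 and Nr4a3 encode transcription factors of the early growth response and Nr4a nuclear receptor families. They were the 4 genes of these families among the 289 genes that could be named in a mouse T cell array study. Of the 45037 probe sets tested, 5 could be assigned to them. These 5 carry a gene symbol identical to 1 of the 4 names in a list supplied by the authors. Any further probe sets for these genes, outside that list, could not be recognised. The list's header leaves its conditions blank, but each listed probe set differed by at least 1.00 on the log2 scale between the averages of this study's blockade arrays and of its untreated ones. The direction of each gene under blockade was thus part of how it was chosen and is described below without a test.

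The study measured RNA on 8 Affymetrix Mouse430_2 arrays. The cells came from mixed lymphocyte reactions, in which responder lymphocytes meet irradiated stimulators of a different strain. Here 200000 CFSE-labelled C57BL/6 splenocytes were cultured per well with 800000 FVB/N splenocytes that had received 30 Gy, and after 5 days responder cells carrying CFSE and CD4 or CD8 were sorted (300000 cells). The 4 groups were CD4 cells under blockade, CD4 cells untreated, CD8 cells under blockade and CD8 cells untreated, with 2 arrays in each. Blockade meant anti-CD40L, CTLA4-Ig and anti-LFA-1 in the medium at 50 µg each, and untreated cultures had no antibody added. All 4 groups were exposed to alloantigen, and none was kept without stimulators. Each group is labelled with 4 mice, but the labels leave unsaid whether its 2 arrays stem from separate cultures. The p-values therefore capture no more than array-to-array spread, part of which may be technical.

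Egr1 and Egr2 are zinc finger factors whose genes are switched on within minutes to hours of antigen receptor engagement in T and B lymphocytes. Egr2 is known in T cells as a regulator of anergy and of the restraint of effector responses. Nr4a2 and Nr4a3 are orphan nuclear receptors whose genes also respond quickly to antigen receptor and cyclic AMP signals. The Nr4a family is associated in T cells with tolerance, regulatory T cells and exhaustion. Lymphocytes of both lineages use these genes, so in a bulk sample RNA from other cells can contribute to them, and fewer cells of a type cannot be told apart from less RNA per cell.

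Promoter sequence is shown for the 3 of 4 genes that RefSeq promoter windows covered (GRCm38.p6), because genes of the 2 families differed in direction. Each is the stretch of 250 bases before an annotated transcript start, in the direction of the gene, with matches to the cyclic AMP response half-site TGACG on either strand and to the CArG box, the sequence bound by serum response factor, in capitals. Egr2 had 5 annotated starts; windows 3, 4 and 5, which overlap, tied for the most such matches, and the most upstream of these is shown. The stretches lie at chr10:67537619-67537868 on the plus strand for Egr2, chr2:57124004-57124253 on the minus strand for Nr4a2 and chr4:48045055-48045304 on the plus strand for Nr4a3.
Egr2: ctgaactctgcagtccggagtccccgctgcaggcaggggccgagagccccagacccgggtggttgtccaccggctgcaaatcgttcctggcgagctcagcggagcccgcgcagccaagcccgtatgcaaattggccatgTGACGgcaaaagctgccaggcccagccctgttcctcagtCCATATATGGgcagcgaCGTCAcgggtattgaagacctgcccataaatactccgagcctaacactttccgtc
Nr4a2: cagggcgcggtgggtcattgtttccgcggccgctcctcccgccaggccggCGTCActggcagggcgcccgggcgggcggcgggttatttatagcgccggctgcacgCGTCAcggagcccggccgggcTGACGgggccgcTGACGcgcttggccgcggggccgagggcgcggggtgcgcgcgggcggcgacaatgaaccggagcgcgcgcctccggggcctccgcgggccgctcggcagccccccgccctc
Nr4a3: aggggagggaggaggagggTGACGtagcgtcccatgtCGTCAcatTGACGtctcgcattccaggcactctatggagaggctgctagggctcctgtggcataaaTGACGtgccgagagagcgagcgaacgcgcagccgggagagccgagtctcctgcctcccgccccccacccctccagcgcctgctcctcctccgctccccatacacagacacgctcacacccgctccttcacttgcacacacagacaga

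The half-site TGACG occurred 4 times in the Nr4a2 window and 4 times in the Nr4a3 window, against 2 times in the Egr2 window. Of 32851 windows of the same length in the RefSeq table, 17.8% held at least 1 such half-site, 3.9% at least 2 and 0.137% at least 4. GC content was 80% in the Nr4a2, 63.6% in the Nr4a3 and 61.6% in the shown Egr2 window, and these shares were not matched for it. Egr2 windows 1 and 2 held no half-site. Egr1 had no window, so these counts do not compare the families. The Egr2 window shown held 1 CArG box, at bases -72 to -63 from the start, and neither Nr4a window held one. A CArG box was present in 1.47% of all windows and in 4 of the 5 Egr2 windows, 3 of which overlap each other and contain the same copy. The full palindrome TGACGTCA (in 1.55% of all windows), the NBRE AAAGGTCA to which Nr4a proteins bind (1.34%), the AP-1 site TGACTCA (4.46%) and the EGR site GCGTGGGCG (0.536%) had no match in any of the 7 windows. The EGR core GTGGGCG (7.02%) matched once, at bases -31 to -25 from the most upstream Egr2 start. The short NFAT core GGAAA, found in 55.6% of all windows, matched in the Nr4a2 window and in 4 of the Egr2 windows, once overlapping the CArG box. These are matches of letters only, and no binding was measured.

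**Figure D1:**
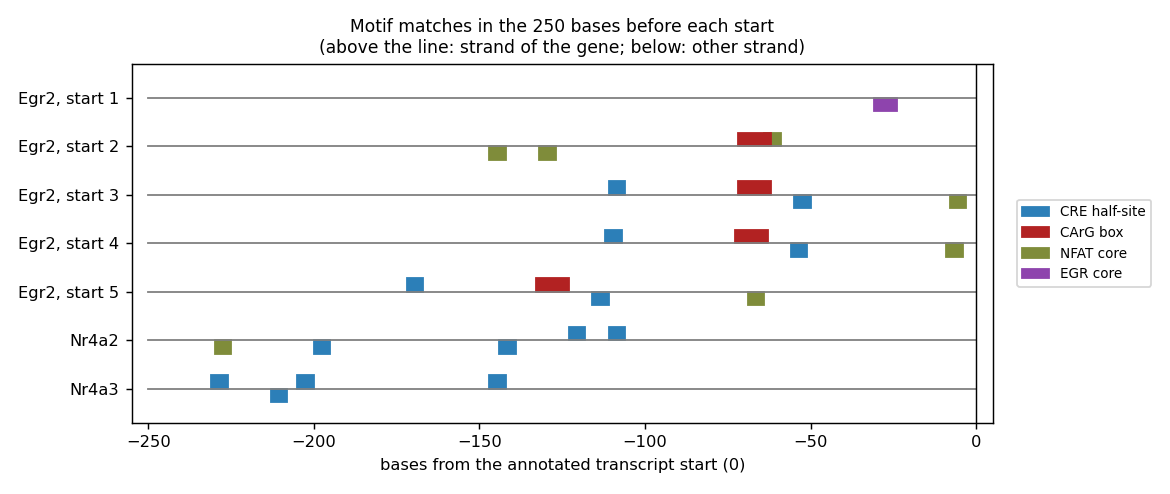
Motif matches (coloured boxes) in the 250 bases before each annotated start of Egr2, Nr4a2 and Nr4a3, with the horizontal axis in bases from the start and boxes above or below the line for the gene's own or the other strand. The Nr4a genes have 4 CRE half-sites each, and 4 of 5 Egr2 windows have a CArG box. Egr2 windows 3, 4 and 5 overlap and hold the same copy.

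The deposited values were already expressed relative to the 8-array median of each probe set, so a value of 0 is that median and no statement on absolute expression can be made. A log base of 2 was assumed, because the sources used here give none. Differences below are log2 units with the limma standard error (SE), and changes in fold are given where they help.

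Egr1, measured by probe set 1417065_at, was higher under blockade on every array. Its values were 0.74 and 0.79 in CD4 cells under blockade, against -0.98 and -0.80 in untreated CD4 cells. In CD8 cells they were 0.65 and 0.83 under blockade and -1.03 and -0.65 untreated. The 4 blockade arrays therefore lay within 0.65 to 0.83 and did not overlap with any untreated array. Blockade minus untreated was 1.66 ± 0.14 in CD4 cells (3.15-fold) and 1.58 ± 0.14 in CD8 cells (3.00-fold; SE, n = 2 and 2 arrays).

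Egr2 showed the larger difference of the 2 Egr genes, averaged over probe sets 1427682_a_at and 1427683_at. It stood at 1.07 and 0.84 in CD4 cells under blockade, against -1.58 and -1.07 in untreated CD4 cells. In CD8 cells it stood at 0.82 and 0.81 under blockade, against -0.99 and -0.81 untreated. Blockade and untreated arrays were again apart, and the lowest 2 values belonged to untreated CD4 cells. The difference was 2.28 ± 0.17 in CD4 cells (4.86-fold) and 1.71 ± 0.17 in CD8 cells (3.28-fold). By mean difference over both subsets Egr2 was number 9 and Egr1 number 23 of the 81 named genes that were higher under blockade. The separate Egr2 probe sets gave 2.37 and 2.20 in CD4 cells and 1.81 and 1.62 in CD8 cells, in the order named above, so both showed the same direction.

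Nr4a2, measured by 1455034_at, was lower under blockade and had the smallest difference of the 4 genes. Its values were -0.35 and -0.56 in CD4 cells under blockade, against 0.26 and 0.99 in untreated CD4 cells. In CD8 cells they were -0.26 and -0.34 under blockade, against 0.75 and 1.32 untreated. The 2 untreated arrays of each subset lay far apart, while the 4 blockade arrays spanned only -0.56 to -0.26. The difference was -1.08 ± 0.25 in CD4 cells (2.11-fold lower) and -1.33 ± 0.25 in CD8 cells (2.52-fold lower). The CD4 value depended on the untreated arrays, at -0.71 without CD4 untreated replicate 2 and -1.44 without CD4 untreated replicate 1. Of the 5 probe sets that of Nr4a2 had the smallest absolute mean difference over both subsets, at -1.21. The smallest absolute difference in the authors' list was 1.00, and the nearest below it outside the list was 0.999. Outside the list 159 probe sets also differed by at least 1 log2 unit, by up to 4.38, so the size of the difference alone did not set membership. Only listed probe sets could be named. Whether unlisted probe sets of these 4 genes were among those tested, and in which direction they differed, therefore could not be checked.

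Nr4a3, measured by 1438796_at, was the more strongly lower of the 2 Nr4a genes. It stood at -0.80 and -0.89 in CD4 cells under blockade, against 1.03 and 1.62 in untreated CD4 cells. In CD8 cells it stood at -0.66 and -0.70 under blockade and at 0.66 and 1.12 untreated. No blockade array came near an untreated one, and the highest 2 of the 4 untreated values were 1.62 and 1.12. The difference was -2.17 ± 0.20 in CD4 cells (4.50-fold lower) and -1.57 ± 0.20 in CD8 cells (2.96-fold lower). Counted from the largest difference, Nr4a3 was number 83 and Nr4a2 number 162 of the 208 named genes that were lower under blockade. For all 4 members the 4 blockade arrays lay beyond the 4 untreated arrays, which was so for 11.8% of all 44951 features; because the list was chosen on this contrast, nothing is read from that count.

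**Figure D2:**
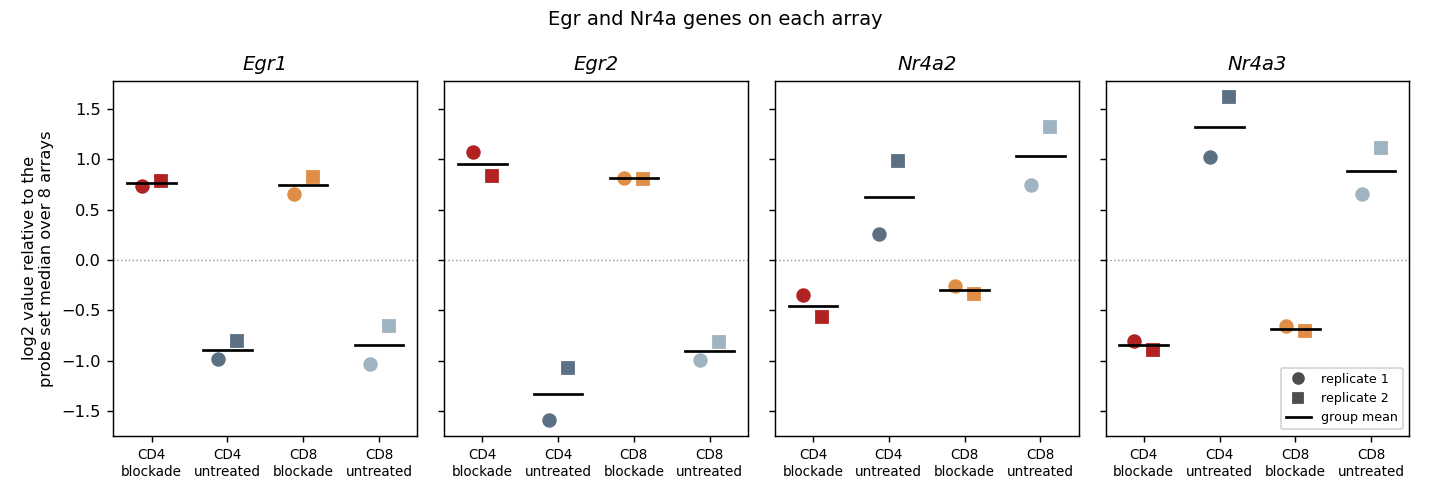
Value of each gene on each of the 8 arrays (vertical axis, log2 relative to the probe set median), with circles and squares for replicates 1 and 2 and bars for the mean of each group. Egr1 and Egr2 lie above 0 and Nr4a2 and Nr4a3 below 0 on all blockade arrays, and the reverse holds on all untreated arrays.

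The opposite direction of the families was seen within each array. The mean of Egr1 and Egr2 minus the mean of Nr4a2 and Nr4a3 was 1.48 and 1.54 in CD4 cells under blockade, against -1.93 and -2.24 in untreated CD4 cells. It was 1.19 and 1.34 in CD8 cells under blockade, against -1.71 and -1.95 in untreated CD8 cells. Blockade minus untreated for this distance between the families was 3.59 in CD4 and 3.10 in CD8 cells. Every pairing of 1 Egr with 1 Nr4a gene had the same sign, between 2.73 (Egr1 with Nr4a2) and 4.45 (Egr2 with Nr4a3) in CD4 cells and between 2.92 and 3.28 for these pairings in CD8 cells. This contrast of directions was part of how the genes were chosen and is a description.

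The list follows the difference between treatments rather than that between the subsets, although spread between subsets within a treatment may have kept a gene out of it. In the limma fit over all 44951 features with Benjamini-Hochberg adjustment, none of the 4 members passed an adjusted p of 0.05 for the difference between subsets in the blockade effect, where 0.0578% of features did (26 features, and 2243 at an unadjusted p under 0.05). CD8 effect minus CD4 effect was -0.57 for Egr2 (95% interval -1.11 to -0.03, unadjusted p = 0.042, limma adjusted p = 0.98). It was 0.60 for Nr4a3 (-0.05 to 1.26, unadjusted p = 0.067, limma adjusted p = 0.98). For both genes the estimate runs toward a smaller blockade effect in CD8 than in CD4 cells, but the intervals reach to about 0. Leaving out 1 array moved these estimates to between -0.83 (without CD4 untreated replicate 2) and -0.31 (without CD4 untreated replicate 1) for Egr2, and to between 0.31 (without CD4 untreated replicate 2) and 0.90 (without CD4 untreated replicate 1) for Nr4a3. Egr1 gave -0.07 (-0.53 to 0.38) and Nr4a2 gave -0.26 (-1.06 to 0.55), each with a limma adjusted p above 0.9. Differences in the effect of up to about 0.5 log2 units for Egr1 and about 1 for Nr4a2 remain within these intervals.

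Without treatment, the estimated difference between CD8 and CD4 cells was smallest for Egr1. CD8 minus CD4 was 0.43 for Egr2 (interval 0.04 to 0.81, unadjusted p = 0.033, limma adjusted p = 0.38), with both CD8 arrays above both CD4 arrays. Nr4a3 went the other way at -0.44 (-0.90 to 0.03, limma adjusted p = 0.48), with overlapping arrays. Nr4a2 stood at 0.41 (-0.15 to 0.98, limma adjusted p = 0.63) and Egr1 at 0.05 (-0.27 to 0.37, limma adjusted p = 0.96). None of the 4 passed, where 2.5% of all features did. Of the 4 members only Egr2 had CD8 and CD4 arrays that did not overlap, which was so for 42.1% of all features. The highest Nr4a3 group was thus untreated CD4 cells and the highest Nr4a2 group untreated CD8 cells, but neither order exceeded the spread between arrays. These values also depended on the untreated CD4 arrays: without replicate 1 CD8 minus CD4 was 0.17 for Egr2, 0.048 for Nr4a2 and -0.73 for Nr4a3, and without replicate 2 it was 0.68, 0.78 and -0.14 for the same genes.

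Under blockade the estimates of all 4 genes were smaller in size. CD8 minus CD4 was -0.02 for Egr1 (-0.35 to 0.30), -0.14 for Egr2 (-0.53 to 0.24), 0.16 for Nr4a2 (-0.41 to 0.72) and 0.17 for Nr4a3 (-0.30 to 0.63). The limma adjusted p was between 0.81 and 0.98, and none of the 4 passed, where 2.2% of all features did. The arrays of the 2 subsets did not overlap for Egr2, Nr4a2 and Nr4a3, against 40.4% of all features. Ordered by level, Egr2 ran from CD4 blockade (0.96 ± 0.17, SD, n = 2) through CD8 blockade (0.81 ± 0.01) and CD8 untreated (-0.90 ± 0.12) to CD4 untreated (-1.33 ± 0.36). Nr4a3 ran in the mirrored order, with CD4 blockade at -0.85 ± 0.06, CD8 blockade at -0.68 ± 0.03, CD8 untreated at 0.89 ± 0.32 and CD4 untreated at 1.32 ± 0.42. Neighbours within a treatment did not pass the test in either gene.

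**Figure D3:**
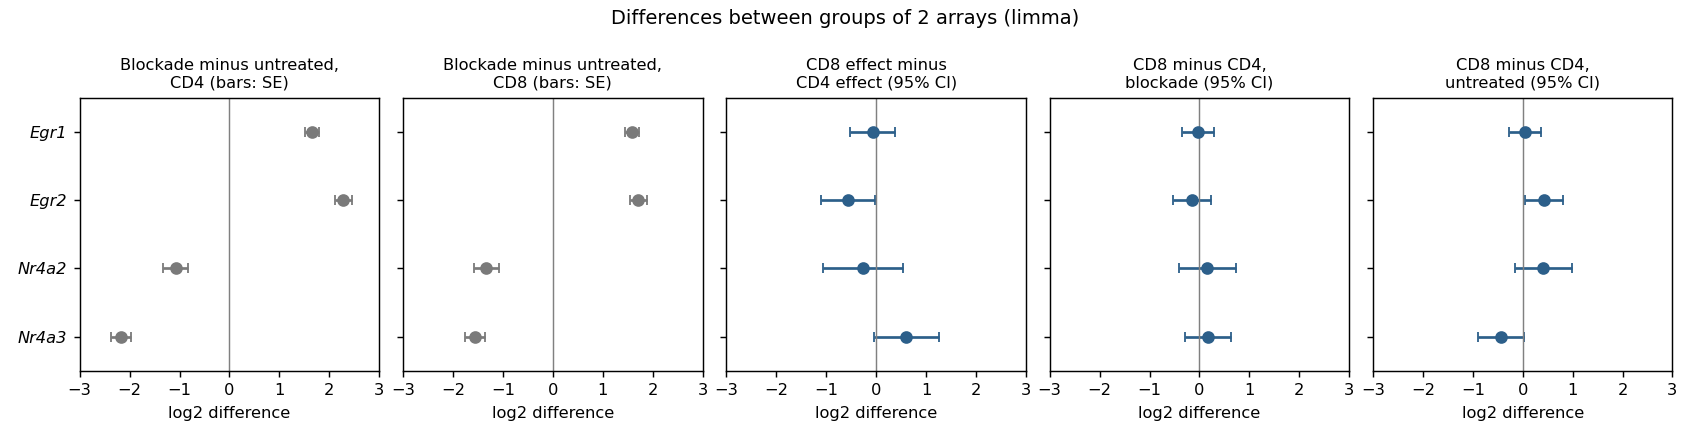
Log2 difference (horizontal axis) of each gene for blockade minus untreated in CD4 and CD8 cells (bars: SE, no test) and for the 3 comparisons of the subsets (bars: 95% intervals). The blockade differences are positive for Egr1 and Egr2 and negative for Nr4a2 and Nr4a3, and none of the subset differences passed the adjusted threshold.

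For all 4 genes and in both subsets the 2 replicate arrays of the untreated group were farther apart than those under blockade. In untreated CD4 cells the array numbered 2 exceeded the array numbered 1 by 0.73 for Nr4a2, 0.59 for Nr4a3, 0.52 for Egr2 and 0.19 for Egr1. In untreated CD8 cells it did so by 0.58, 0.46, 0.18 and 0.38 for the same genes. All 4 genes were thus higher on the array numbered 2 in both untreated groups, as were 25.4% of all features, 43.3% of the 208 named genes that were lower under blockade and 19.8% of the 81 that were higher. A gap as large as that of Nr4a2 was found in 0.454% of all features and 13.5% of the named genes in untreated CD4 cells, and in 2.12% and 11.8% in untreated CD8 cells. Under blockade the largest gap of any member was 0.24 in size, for Egr2 in CD4 cells. CD4 untreated replicate 2 was also 1 of the 2 arrays with unusual spike-in controls, at a median of -0.23 for the hybridization and -0.44 for the poly-A controls; the other was CD8 blockade replicate 1, at 0.92 and 0.79, while the other 6 arrays lay between -0.18 and 0.19. Without both of these arrays the CD4 difference was 2.54 for Egr2, 1.75 for Egr1, -0.71 for Nr4a2 and -1.87 for Nr4a3, and the part of the spike-in difference in these values was not tested.

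Few other genes of the antigen receptor response could be named. Of 9 genes of the Egr and Nr4a families and their Nab corepressors, only the 4 members were among the listed genes, so Egr3, Egr4, Nr4a1, Nab1 and Nab2 were not analysed here. Of 42 immediate-early and early response genes only Cd69 was named. Cd69, an activation marker that retains T cells in lymphoid tissue, differed by -1.01 ± 0.16 in CD4 cells and by -1.17 ± 0.16 in CD8 cells, the direction of the Nr4a genes. Of all features 3.4% were called in CD4 cells, 1.39% higher and 2.02% lower, and 1.93% in CD8 cells, 0.785% higher and 1.14% lower. The list that supplied the names was selected on this contrast and these arrays, and of its 289 named genes 275 passed in CD4 and 247 in CD8 cells. The counts of named genes that passed, given below with rose or fell for those past the limma threshold, are therefore descriptions and no independent evidence of a change or its direction.

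The 3 named genes linked to anergy or to Egr2 and Egr3 targets were lower under blockade, opposite to Egr2. So were 208 of the 289 named genes in each subset. All 3 of the 22 listed that could be named fell in both subsets, with a median of -2.69 in CD4 and -1.73 in CD8 cells, where the median of all features was 0.01 and 0.02 and that of the 289 named genes -1.41 and -1.22. Socs2, a cytokine-induced suppressor of cytokine signalling, changed by -5.77 ± 0.17 in CD4 cells and by -4.21 ± 0.17 in CD8 cells. Socs1, another suppressor of this family, changed by -2.69 ± 0.14 and -1.58 ± 0.14, and Cdkn1a, the cell cycle inhibitor p21, by -2.30 ± 0.19 and -1.73 ± 0.19. None of the 16 exhaustion- and Nr4a-associated genes could be named. Of 18 costimulation-dependent receptors and cytokines 8 were named, and all 8 fell in both subsets. Their range was -5.41 (Gzmb, granzyme B) to -1.31 (Tfrc, transferrin receptor) in CD4 cells, with Tnfrsf9 (CD137) at -4.86, Il2ra (the interleukin-2 receptor alpha chain) at -4.21 and Penk (proenkephalin) at -4.09. The call of Tfrc was lost in CD4 cells without CD4 blockade replicate 1 or 2 or CD4 untreated replicate 2, and in CD8 cells without CD8 blockade replicate 1 or 2 or CD8 untreated replicate 2, and that of Il2ra in CD8 cells without CD8 blockade replicate 1 or CD8 untreated replicate 2. In size Nr4a3 lay below 7 of these 8 genes in CD4 cells and below 6 in CD8 cells.

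B cell markers rose under blockade, as the Egr genes were higher. Of 22 B cell markers 16 were named and all 16 rose in both subsets, by 1.11 to 2.34 in CD4 cells and by 0.88 to 2.19 in CD8 cells (medians 1.42 and 1.35). Without both arrays with unusual spike-in controls 16 rose in CD4 cells and 10 in CD8 cells. Egr1 and Egr2 lay inside both ranges, with 5 of the 16 markers above Egr1 and 1 above Egr2 in CD4 cells, and 4 and 3 in CD8 cells. Cr2, a complement receptor, rose by 2.34 ± 0.15 in CD4 and 2.19 ± 0.15 in CD8 cells, Fcer2a, the low-affinity IgE receptor, by 2.20 ± 0.17 and 2.06 ± 0.17, Fcmr, the IgM Fc receptor, by 1.89 ± 0.12 and 1.91 ± 0.12, and Blnk, an adaptor of the B cell receptor, by 1.60 ± 0.13 and 1.71 ± 0.13. The mean of the 16 markers lay at 0.73 to 0.85 in CD4 cells under blockade and -0.83 to -0.69 in untreated CD4 cells, and at 0.64 to 0.69 in CD8 cells under blockade and -0.83 to -0.65 in untreated CD8 cells. Since the values are centred, whether any defining marker was near 0 cannot be read from them. The part of B cell RNA in the Egr differences was not tested.

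Set against the B cell marker mean on the same array, Egr1 differed little. The Egr genes and these markers all come from the list chosen on the blockade contrast, and all were higher under blockade. Subtracting the marker mean therefore takes away most of the treatment difference by selection, and the values below are a description. Egr1 minus that mean was -0.12 and 0.06 in CD4 cells under blockade, against -0.15 and -0.11 in untreated CD4 cells. It was 0.01 and 0.14 in CD8 cells under blockade, against -0.38 and 0.17 in untreated CD8 cells. On this relative scale the blockade and untreated values of Egr1 overlapped in both subsets. Egr2 minus the same mean was 0.22 and 0.11 in CD4 cells under blockade, against -0.75 and -0.38 in untreated CD4 cells. In CD8 cells it was 0.17 and 0.12 under blockade, against -0.34 and 0.01 untreated. For Egr2 the blockade values lay above the untreated ones in both subsets, by a wider margin in CD4 cells.

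Other marker lists split between the directions of the 2 families. All 10 named genes of B cell receptor signalling (of 18), 6 of which the B cell marker list also holds, rose in both subsets. In CD4 cells Rasgrp3, a Ras activator, rose by 2.01 and Pik3ap1, a B cell adaptor, by 1.94, with Blnk at 1.60 and the kinase gene Blk at 1.66. Of 8 named MHC class II presentation genes (of 11), 7 rose and Cd86, a costimulatory ligand, fell in both subsets, with H2-Ab1 at 1.70 ± 0.11 and 1.64 ± 0.11. H2-Aa, H2-Eb1 and H2-DMb2, further class II genes, rose by 1.52, 1.52 and 1.49 in CD4 cells. The Cd86 call was lost in CD4 cells without CD4 blockade replicate 2 or CD4 untreated replicate 2 and in CD8 cells without any 1 of their 4 arrays. Of 3 named macrophage and dendritic cell genes (of 18) all 3 rose in CD4 and 2 in CD8 cells, where Fabp4, a fatty acid-binding protein, lay at 1.95 ± 0.41 without passing. Fabp4 passed in CD8 cells without CD8 blockade replicate 1, and its CD4 call was lost without any 1 of the 4 CD4 arrays or of the 2 untreated CD8 arrays. Apoe, apolipoprotein E, rose by 2.43 ± 0.13 and 2.69 ± 0.13, and Cybb, a subunit of the phagocyte oxidase, by 1.30 ± 0.16 and 1.22 ± 0.16, with the CD8 call lost without CD8 blockade replicate 1. Neutrophil markers had the direction of the Nr4a genes, all 8 named (of 14) being lower under blockade, of which 7 passed in CD4 and 6 in CD8 cells. In CD4 cells S100a9 and S100a8, calcium-binding proteins of neutrophils, differed by -4.00 and -3.91, Ngp, a granule protein, by -3.97, and Ctsg, cathepsin G, by -2.91. Lcn2, at -1.31 in CD4 cells, passed in neither subset, and Ltf, at -1.57, did not pass in CD8 cells. Lcn2 passed in CD4 cells without CD4 untreated replicate 1 or either untreated CD8 array and in CD8 cells without either untreated CD4 array, and the CD4 call of Ltf was lost without either CD4 blockade array or CD4 untreated replicate 2. All 6 named genes of the mast cell and basophil list (of 12) fell in CD4 and 5 in CD8 cells, with the inflammatory cytokine Il6 counted among them. In CD4 cells the proteases Cpa3, Mcpt8 and Cma1 differed by -4.17, -3.34 and -2.63. The IgE receptor chains Fcer1a and Ms4a2 differed by -3.31 and -1.13, and Il6 by -1.13. Ms4a2, at -1.02, did not pass in CD8 cells, where it passed without CD4 untreated replicate 1 or 2, and its CD4 call was lost without either array of either blockade group or CD4 untreated replicate 2. The Il6 calls were lost without either array of either blockade group, in CD4 cells also without CD4 untreated replicate 2 and in CD8 cells also without CD8 untreated replicate 2. Leaving out 1 array gave 6 to 8 neutrophil and 4 to 6 mast cell and basophil calls in CD4 cells, and 6 to 7 and 4 to 6 in CD8 cells. No member of the T cell list (11 genes) or the NK cell list (7 genes) could be named, so the sorted subsets could not be checked against their own markers. Whether other cells contributed to the Nr4a values was not tested.

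**Figure D4:**
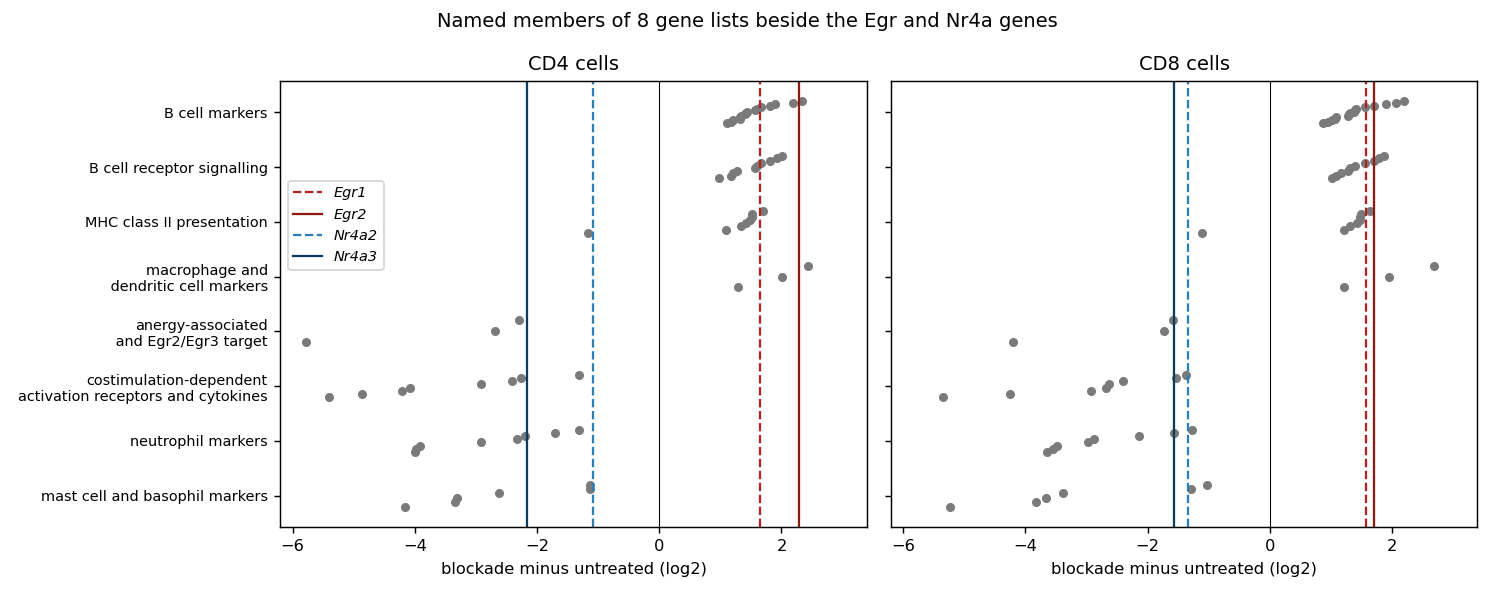
Blockade minus untreated (horizontal axis, log2) of the named members of 8 gene lists (grey points, 1 per gene) in CD4 and CD8 cells, with vertical lines for the 4 genes. Egr1 and Egr2 fall inside the range of the B cell markers (1.11 to 2.34 in CD4 cells), and Nr4a2 and Nr4a3 on the side of the costimulation-dependent, neutrophil and mast cell lists.

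The named genes with the most similar pattern differed between the families. Likeness was the root-mean-square (RMS) difference over the 8 arrays between genes centred on their own means, among the 288 other named genes. The arrays fall into 2 treatments, which all 289 named genes separate, so these values describe size and shape together and carry no test. Egr1 was nearest to H2-Eb1 (RMS 0.14 log2 units), Cd22 (0.16), H2-Ea (0.16), H2-Ab1 (0.16) and Cd74 (0.17). H2-Eb1, H2-Ea and H2-Ab1 encode MHC class II chains, Cd74 is the invariant chain, and Cd22 is an inhibitory co-receptor of B cells. Egr2 was nearest to Fcmr (0.22), Pik3ap1 (0.23), Rasgrp3 (0.26), S1pr3 (0.26), a sphingosine 1-phosphate receptor gene, and Egr1 (0.27).

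The genes nearest to the Nr4a members included none of these. That follows from the opposite directions, since genes of opposite direction under blockade lie far apart by this measure. Nr4a2 lay nearest to Bcat1 (RMS 0.18), an enzyme of branched-chain amino acid metabolism, Cenph (0.19), Il6 (0.19), Psrc1 (0.20) and Cenpw (0.21). Cenph and Cenpw encode kinetochore proteins, and Il6 is an inflammatory cytokine. Nr4a3 lay nearest to Fignl1 (0.13), Ncapg2 (0.15), Cdca8 (0.17), Uhrf1 (0.17) and Cdc6 (0.20). Ncapg2 is a condensin subunit, Cdca8 a part of the chromosomal passenger complex, Uhrf1 a factor for maintenance DNA methylation and Cdc6 a replication licensing factor. Nr4a2 was farther from Nr4a3 (0.45) than Egr1 was from Egr2 (0.27). Like Nr4a3, these 5 genes were highest on the array of CD4 untreated replicate 2. Nr4a2 and Bcat1 instead had their highest value on CD8 untreated replicate 2.

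**Figure D5:**
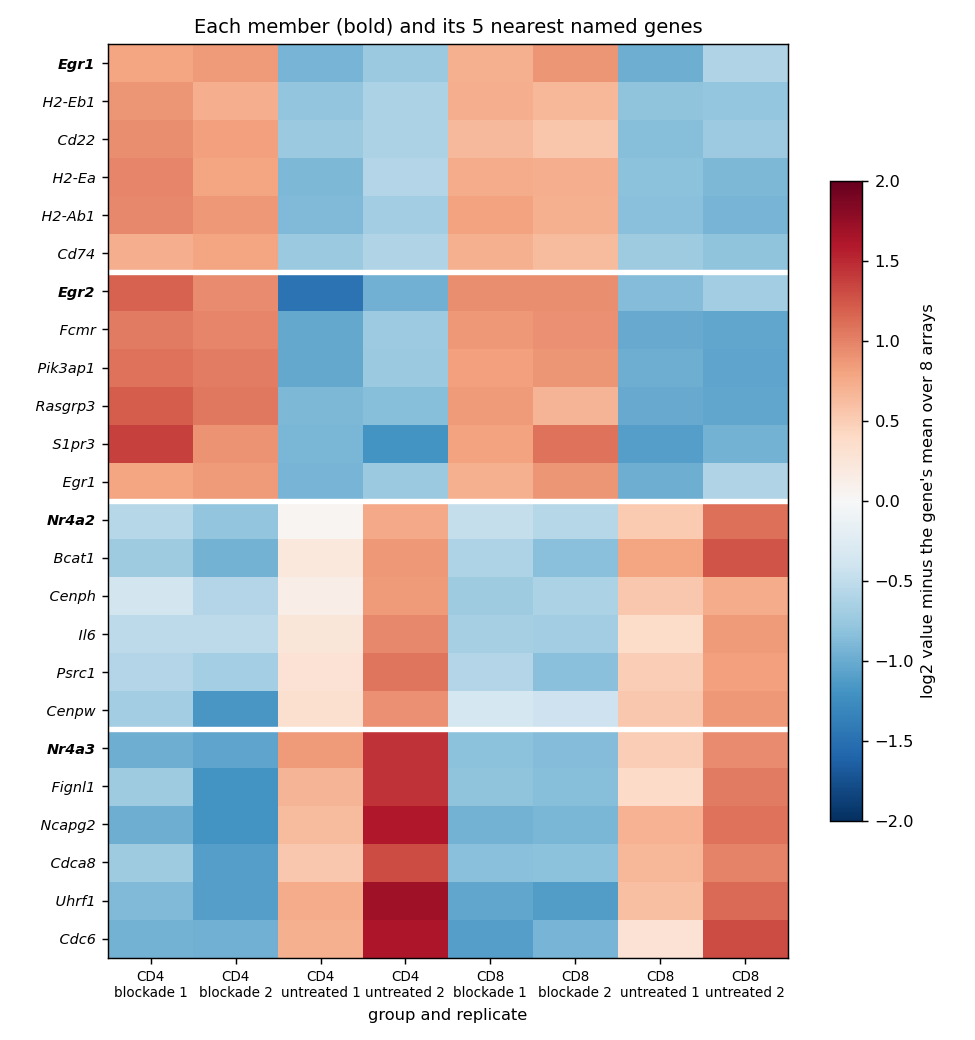
Value of each gene (rows) on each array (columns, group and replicate), centred on the gene's own mean over the 8 arrays, with the colour scale in log2 units. Each of the 4 genes (bold) is followed by its 5 nearest named genes, which share its direction between blockade and untreated arrays.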

How the data were processed

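Titles of the 8 Affymetrix Mouse430_2 arrays gave the 4 groups of 2. The authors deposited log2 values relative to the row median (largest row median 5e-07). How they summarised and normalized the arrays, and the log base, the sources do not say, and base 2 was inferred from the layout of the authors' list. That list, per the file headers an unpaired test at a corrected p-value of at most 0.05, held 409 probe sets, of which 375 had 1 gene. Its values equalled those of the full table.

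Control probe sets (64 of 45101) were left out. Symbols were updated by Entrez identifier through RefSeq gene records for GRCm38.p6 (369 of 375 found), and a gene's listed probe sets were averaged. limma 3.58.1 under R 4.3.3 fitted 44951 features with group means and eBayes without trend (4 residual and 4.48 prior degrees of freedom). Tests were two-sided at a threshold of 0.05 after Benjamini-Hochberg adjustment over all features. The fit was tested on simulated data. Genes were named by a rule: the 4 members, the 5 nearest genes of each, and from each list all named genes where 6 or fewer were named, otherwise the 4 with the largest mean differences; others are named as comparisons or exceptions. Pearson's r, planned beside the likeness, was left out because the arrays form 2 separate clusters. Members, lists and motifs were chosen with earlier results of these data known. Array numbers limit the precision.

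Alternatives were quantile normalization, single probe sets, a replicate block, array weights, robust eBayes, leaving out arrays, and fits of 4 arrays.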

Additional observations from a re-analysis of the deposited data

How the results depend on the processing

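None of the 4 genes passed a limma adjusted p of 0.05 for any of the 3 subset comparisons under any of the 13 to 16 alternatives run for each, and the lowest adjusted p was 0.112, for Egr2 in untreated cells without CD4 untreated replicate 2. The labels do not say whether the replicate numbers pair the arrays. Deviations of same-numbered arrays correlated between -0.03 and 0.08, which cannot decide it, and the main fit treated the arrays as unpaired. With the number as a block, calls went to 22 features for the subset difference (26 without the block), 909 for CD8 minus CD4 under blockade (990), 1019 untreated (1123), 1389 for blockade in CD4 cells (1529) and 803 in CD8 cells (867), and no call of the 4 genes in the subset comparisons changed. Quantile normalization gave 16 calls for the subset difference, 12 of them positive (CD8 effect minus CD4 effect) against 24 of 26 as deposited. It moved the blockade difference to 1.93 for Egr1, 2.69 for Egr2 and -1.80 for Nr4a3 in CD4 cells, to 1.85 for Egr1 and 2.04 for Egr2 in CD8 cells, and the distance between the families in CD8 cells to 3.37.

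Without both arrays with unusual spike-in controls, limma called 0 features for the subset difference (2113 at an unadjusted p under 0.05; 25 with robust eBayes on all arrays), 392 for CD8 minus CD4 under blockade, 460 untreated, 531 for blockade in CD4 cells and 275 in CD8 cells. Egr1 then reversed to 0.064 for CD8 minus CD4 under blockade, and the CD4 blockade difference was 2.54 for Egr2, -0.71 for Nr4a2 and -1.87 for Nr4a3. Fits of only the 4 arrays compared called 628 features for CD8 minus CD4 under blockade and 453 for blockade in CD8 cells. Single pairs gave 2.73 (Egr1 with Nr4a2), 3.82 (Egr1 with Nr4a3), 3.36 (Egr2 with Nr4a2) and 4.45 (Egr2 with Nr4a3) in CD4 cells, and 2.92 (Egr1 with Nr4a2) and 3.28 (Egr2 with Nr4a3) in CD8 cells.

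Leaving out 1 array gave 5 to 26 calls for the subset difference, 505 to 884 for CD8 minus CD4 under blockade, 551 to 1070 untreated, 666 to 1413 for blockade in CD4 cells and 411 to 773 in CD8 cells. The signs near 0 changed, with -0.26 to 0.12 for Egr1 and -0.62 to 0.11 for Nr4a2 in the subset difference, and for Egr1 -0.11 to 0.064 in CD8 minus CD4 under blockade and -0.14 to 0.24 untreated. The other subset values of the 4 genes kept their sign. Blockade differences spanned 2.03 to 2.54 for Egr2, -1.44 to -0.71 for Nr4a2 and -2.46 to -1.87 for Nr4a3 in CD4 cells, and 1.39 to 1.77 for Egr1 in CD8 cells, and the distance between the families 3.44 to 3.75 in CD4 cells. Fewer arrays enter these fits by construction, and otherwise the cause was not tested. The blockade differences of all 4 genes kept their direction in each subset under every alternative. Leaving out arrays could not reverse them, because every blockade array lay beyond every untreated array for each gene. A replicate block, array weights and robust eBayes left these differences unchanged. The list was also chosen on this contrast, so the kept direction is a description. The number of arrays limits precision, and signal over background is not recoverable from centred values.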
